A study of Mus musculus with 4 samples.

Results

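The genes described here serve protein folding, quality control and stress signalling in the endoplasmic reticulum. They are 35 named genes of 23235 in the deposited tables, taken by their symbol and all found in both tables. They fall into 6 groups by role, with 12 chaperones and their cofactors, 4 disulfide isomerases, 5 sensors and transcription factors, 4 targets of the transcription factor Atf4, 7 genes of protein degradation and 3 of translocation into the endoplasmic reticulum. RNA came from the uterus of mice mated with a vasectomized male, which makes a female pseudopregnant with no embryos present, and was collected on day 4. The luminal epithelium, the cell layer facing the uterine cavity, and the stroma below it were each cut out by laser capture microdissection. For each compartment there was 1 library labelled as a uterine-specific knockout of the homeobox transcription factors Msx1 and Msx2 (Msx1d/d/Msx2d/d) and 1 from a floxed control (Msx1f/f/Msx2f/f). The series' design text speaks of a single animal per genotype, and genotype and animal therefore cannot be told apart. No label read here names the Cre line that deletes the floxed alleles or the age of the mice.

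The endoplasmic reticulum is where secreted and membrane proteins enter the secretory pathway, are folded by chaperones and receive their disulfide bonds and sugar chains. Proteins that fail to fold are drawn back into the cytosol and degraded. When unfolded proteins build up, the membrane sensors Ern1, Eif2ak3 and Atf6 start the unfolded protein response: Ern1 splices the Xbp1 mRNA, Eif2ak3 slows translation while favouring that of Atf4, and Atf6 is cut to release a transcription factor. Atf6 and spliced Xbp1 raise chaperone and degradation genes, while Atf4 raises genes of amino acid supply and, under lasting stress, Ddit3. Cells that secrete much protein, among them the uterine epithelium and collagen-making stroma, carry a large endoplasmic reticulum. Expression per gene does not show the splicing of Xbp1, the translation of Atf4 or the cutting of Atf6.

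With 1 library per group there is no test across animals, and higher or lower below describes these libraries. Levels are in RPKM, reads scaled by transcript length and by mapped reads, as deposited. A difference is log2((labelled knockout + 1)/(control + 1)), a gene was kept when its mean over the pair reached 1 RPKM, and a gene was called 2-fold higher or lower when the log2 difference reached 1 in size. Ratios are of RPKM without the added 1, and the limits beside them are 95% exact binomial limits on reads estimated from the values, which cover counting error only. The estimated depth was 6.24 M reads in the luminal epithelium control and 90.8 M in its partner from the labelled knockout, a ratio of 14.5, against 42.7 and 61.3 M in stroma, so the epithelial control sets the precision of the epithelial ratios. Msx1 was lower in the epithelial library labelled knockout, at 23.2 and 13.6 RPKM, but Msx2 was higher, at 1.31 and 2.06 RPKM. Msx2 goes against the label, and a direction below is therefore that of the library labelled knockout. The sources used here do not say which exons were deleted. Captures carried the markers of their labelled tissue, with Krt8 at 56.9 and 62.7 RPKM in epithelium against 0.07 and 0.04 in stroma. Genes listed at 0 are not read as absent, since Rpl26, a ribosomal protein gene picked once its level was known, has a value of 0 in either control.

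In luminal epithelium, most of the 35 genes were higher in the library labelled knockout. The log2 difference was above 0 for 33 of 35, with Hsp90b1 and Asns below, and the median over the 35 was 0.50. Among all 23235 genes 42.7% were above 0 and the median was 0, and among the 7736 kept genes, a set closer in level, 61.9% were above 0 with a median of 0.10. Hspa5, Creld2, Xbp1, Pdia6 and Herpud1 were at least 2-fold higher and no gene was 2-fold lower, where 5.03% of kept genes were 2-fold higher and 1.99% lower (1.82% and 0.813% of all genes). The counting limits of the ratio lay above 1 for 25 of 35, below 1 for Asns alone and reached 1 for 9. Among kept genes the limits lay above 1 for 25.1% and below 1 for 13.5%, and among all genes of known length for 10.6% and 7.67%. The summed level of the 35 was 265 RPKM in the control and 426 RPKM in its partner, a ratio of 1.61. All genes of the epithelial table also summed higher, to 80563 RPKM in the control and 109810 RPKM in its partner. The ratio of 1.61 is not corrected for this difference in totals. Such totals are weighted by the most abundant genes, and the median log2 difference of kept genes was 0.10. In such bulk captures more cells of a secretory type and more RNA per cell cannot be told apart.

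These counts depend on how the libraries are scaled. Rescaling the epithelial pair by the sums without the 50 most abundant genes moved the median of kept genes by -0.18. All kept genes then split into 315 higher and 225 lower by 2-fold, in place of 389 and 154. Under that scaling 31 of the 35 were above 0 with a median of 0.28, and Dnajb9 and Derl2 changed sign. The median of the kept genes of the 35 lay above that of all genes used by 0.43 as deposited and by 0.35 to 0.50 over the 8 alternatives tried.

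**Figure D1:**
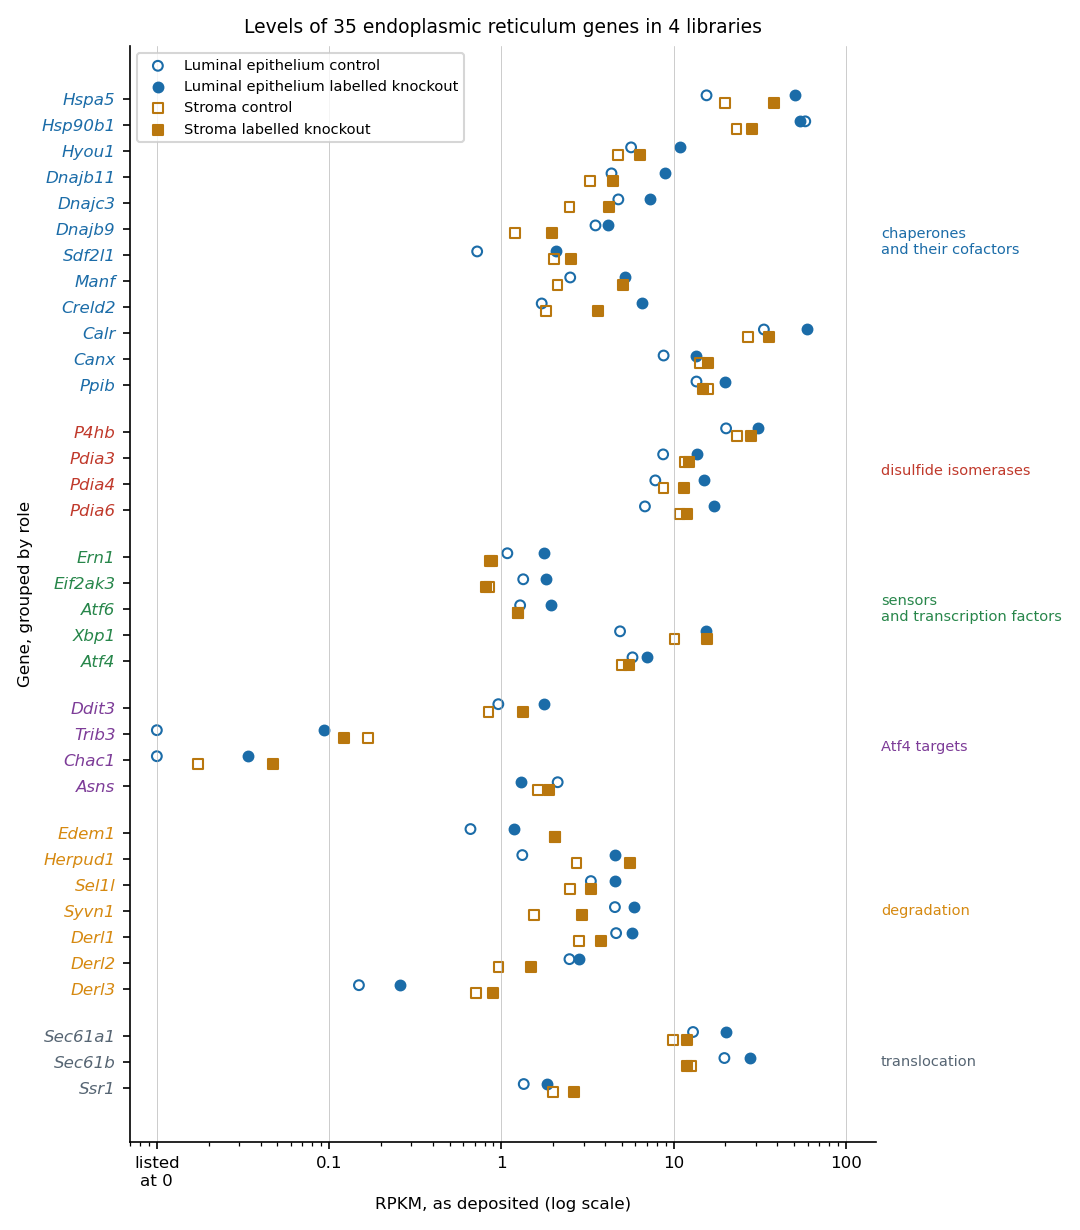
Level of each of the 35 genes in RPKM (log axis, values of 0 set at the left edge) in the luminal epithelium (circles) and stroma (squares), with open symbols for the control and filled symbols for the library labelled knockout, 1 library each. Hspa5 stands at 15.5 and 50.9 RPKM in epithelium, while Hsp90b1, at 58.1 and 54.4 RPKM, and Asns, at 2.12 and 1.29 RPKM, lie lower in the library labelled knockout there. The compartments were normalized separately.

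Chaperones had the highest median of the 6 groups in epithelium, a log2 difference of 0.82 over the 12 genes, 11 above 0 and 10 with limits above 1. Hspa5 (build mm9, chromosome 2, 34627610 to 34632049), the main Hsp70 chaperone of the endoplasmic reticulum, measured 15.5 RPKM in the control and 50.9 RPKM in its partner, a ratio of 3.28 (2.88 to 3.75). Hsp90b1 (chromosome 10, 86153586 to 86168189), the Hsp90 chaperone of the same compartment and a textbook companion of Hspa5 in the unfolded protein response, measured 58.1 and 54.4 RPKM, a ratio of 0.936 (0.877 to 1.0). These 2 chaperones thus did not move together in epithelium. The level of Hspa5 relative to Hsp90b1 within a library, a ratio that does not depend on how libraries are scaled, was 0.267 in the control and 0.936 in its partner, 3.50 times as high. In stroma the same ratio was 0.861 and 1.33, which is 1.55 times as high.

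The cofactors of Hspa5 were mostly higher in epithelium. Hyou1, which exchanges the nucleotide of Hspa5, was at 5.66 and 10.9 RPKM, with a ratio of 1.93 (1.64 to 2.29). Dnajb11, a J-domain cofactor, was at 4.36 and 8.87 RPKM, with a ratio of 2.03 (1.52 to 2.73). Dnajc3, another J-domain protein that also restrains Eif2ak3, had a smaller ratio of 1.54 (1.30 to 1.83), from 4.78 and 7.33 RPKM. Dnajb9, the J-domain cofactor that serves degradation and holds Ern1 back, was at 3.52 and 4.17 RPKM, and its limits of 0.884 and 1.6 reached 1. Sdf2l1, a partner of the J-domain proteins, was at 0.724 and 2.06 RPKM, but its control value rests on about 4 estimated reads and its limits ran from 1.12 to 10.8. Sdf2l1 passed the minimum only through the library labelled knockout.

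Manf and Creld2 are small luminal proteins that are known as strongly induced members of the response. Creld2 (chromosome 15, 88650076 to 88657111) measured 1.71 RPKM in the epithelial control and 6.58 RPKM in its partner, a ratio of 3.84 (2.27 to 7.77). Manf (chromosome 9, 106789746 to 106794269) measured 2.51 and 5.23 RPKM, a ratio of 2.08 (1.47 to 3.07). Calr and Canx, the lectin chaperones that hold sugar-bearing proteins until they are folded, stood at 33.4 and 59.8 RPKM and at 8.75 and 13.5 RPKM, with ratios of 1.79 (1.62 to 1.98) and 1.55 (1.35 to 1.78). Ppib, a proline isomerase of the endoplasmic reticulum, was at 13.6 and 19.8 RPKM, a ratio of 1.46 (1.12 to 1.92). Abundant and scarce chaperones were thus both higher, and Hsp90b1 was the exception among the abundant ones.

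Promoter matches of some chaperones, with Pdia6 and Syvn1, are shown because Hspa5 and Hsp90b1 differed while both carry the same known element. The matches of the chaperone Canx and of Derl3 are not printed. The endoplasmic reticulum stress element, bound by Atf6 with the CCAAT factor, was searched on both strands as CCAAT and CCACG with 9 bases of any kind between them, in the 250 bases before and 50 bases after each transcription start, taken from RefSeq on build GRCm38.p6, not the mm9 build of the deposited coordinates. Such a window was found for 30 of the 35 genes, with none for Hyou1, Manf, Atf6, Derl1 and Sec61a1. Below, capitals mark the match within 5 flanking bases, written 5′ to 3′ on the strand of the gene, so that a match on the other strand reads CGTGG first.
Hspa5, chr2:34772020-34772048 (+): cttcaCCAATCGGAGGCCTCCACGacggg
Hsp90b1 distal, chr10:86705633-86705661 (-): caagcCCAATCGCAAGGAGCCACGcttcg
Hsp90b1 proximal, chr10:86705528-86705556 (-): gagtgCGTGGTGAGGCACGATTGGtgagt
Creld2, chr15:88819515-88819543 (+): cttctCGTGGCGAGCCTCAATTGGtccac
Calr, chr8:84847070-84847098 (-): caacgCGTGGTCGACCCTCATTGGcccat
Dnajc3, chr14:118937822-118937850 (+): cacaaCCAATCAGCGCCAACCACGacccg
Pdia6, chr12:17266486-17266514 (+): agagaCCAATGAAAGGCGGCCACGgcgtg
Syvn1, chr19:6046527-6046555 (+): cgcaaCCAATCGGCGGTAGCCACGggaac

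The 250 bases before the start are given whole for the pair that differed, with the same matches in capitals. Counted from the transcription start, Hspa5 holds 1 match at bases -65 to -47, and Hsp90b1 holds 2, at bases -212 to -194 and -107 to -89. These are exact matches only. Near forms were not counted, such as ccaatcagcggcctccaac in Hspa5, which differs from the searched form in its last 2 letters. The counts are therefore not the number of working elements.
Hspa5, chr2:34771840-34772089 (+): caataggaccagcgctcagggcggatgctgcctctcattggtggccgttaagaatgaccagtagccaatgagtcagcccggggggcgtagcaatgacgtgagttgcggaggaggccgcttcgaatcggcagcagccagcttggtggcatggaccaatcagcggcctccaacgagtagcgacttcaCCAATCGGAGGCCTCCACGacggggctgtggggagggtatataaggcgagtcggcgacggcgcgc
Hsp90b1, chr10:86705445-86705694 (-): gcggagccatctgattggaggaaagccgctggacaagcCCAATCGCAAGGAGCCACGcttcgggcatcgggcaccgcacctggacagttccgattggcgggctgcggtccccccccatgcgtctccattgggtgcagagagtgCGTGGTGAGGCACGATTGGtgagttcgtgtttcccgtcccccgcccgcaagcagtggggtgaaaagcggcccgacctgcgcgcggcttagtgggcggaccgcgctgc

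The element was found in 9 of the 30 genes with a window, against 37 of all 27025 such genes (0.137%). A gene was counted once if any of its promoters held the element. The 9 genes were Hspa5, Hsp90b1, Dnajc3, Creld2, Calr, Canx, Pdia6, Syvn1 and Derl3. Since the genes were picked as members of this response, their share is no independent result. Another form of the element was searched on both strands as ATTGG and CCACG with 1 base of any kind between them, which shares the CCACG letters with the first form and has CCAAT on the opposite strand. It was found in Dnajb11 and Herpud1 and in 0.0444% of all genes with a window. The match of Dnajb11 lies just after the start, at bases 8 to 18.
Herpud1, chr8:94386372-94386392 (+): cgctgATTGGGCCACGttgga
Dnajb11, chr16:22857847-22857867 (+): cggcgATTGGCCCACGcctgg
In epithelium the 10 kept genes of the 35 with either form had a median log2 difference of 0.85, and the 16 kept genes with a window and neither form had 0.44. In stroma the medians were 0.49 over 10 and 0.26 over 15. Genes outside the 35 that hold either form had medians of 0.10 over 7 kept genes in epithelium and -0.01 over 6 in stroma. Of the genes that hold the element, Pdia6 had a difference of 1.21 in epithelium and 0.12 in stroma, and Syvn1 had 0.31 and 0.64. The core of another Xbp1-bound element, TGACGTGG, was found in none of the 30 and in 0.714% of all genes with a window. That says only that these letters are not in the windows.

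**Figure D2:**
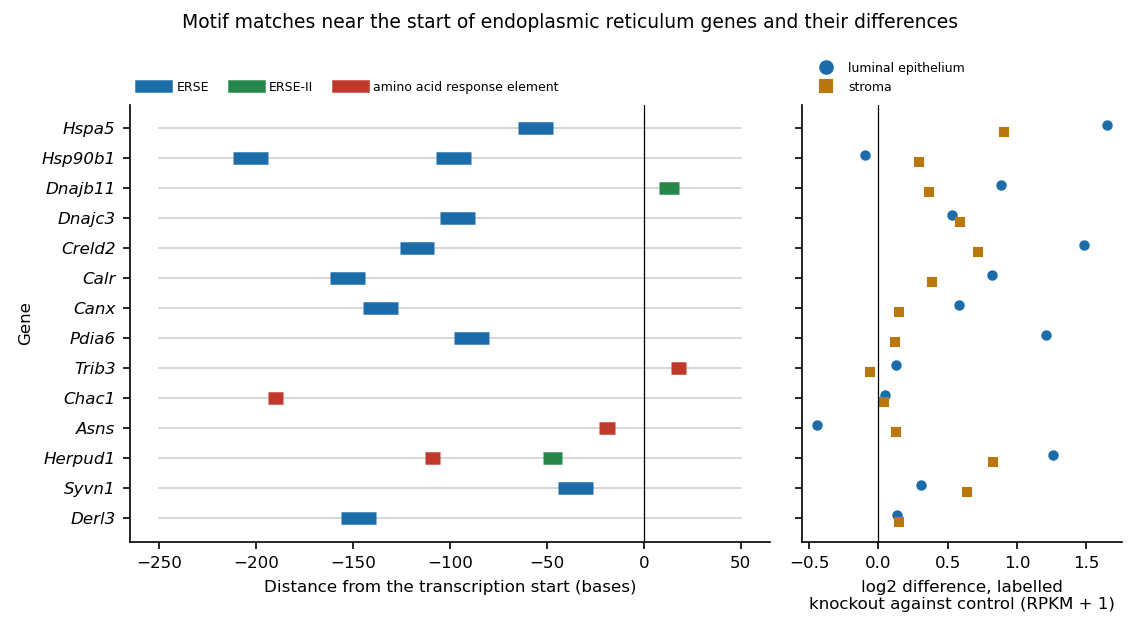
Left, position of motif matches from 250 bases before to 50 bases after the transcription start (x axis, bases) in the endoplasmic reticulum genes that hold a match. Right, log2 difference of the same genes in luminal epithelium (circles) and stroma (squares). Hsp90b1 holds 2 exact matches of the stress element and lies at -0.09 in epithelium, and Hspa5 holds 1 and lies at 1.65. Near forms of the element were not counted.

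The 4 disulfide isomerases, which form and rearrange disulfide bonds, were all higher in epithelium with limits above 1, and their median log2 difference was 0.73. Pdia6 (chromosome 12, 17273401 to 17331536) was the highest of them by ratio, at 6.82 and 17.0 RPKM and 2.50 (2.01 to 3.15). Pdia4, at 7.83 and 15.0 RPKM, had a ratio of 1.92 (1.59 to 2.36). P4hb, which is also a subunit of the collagen prolyl hydroxylase, was at 20.2 and 31.1 RPKM, a ratio of 1.54 (1.38 to 1.72). Pdia3, the isomerase that works with Calr and Canx, was at 8.69 and 13.6 RPKM, a ratio of 1.57 (1.33 to 1.88).

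Among the sensors and transcription factors Xbp1 stood apart in size. Xbp1 (chromosome 11, 5420970 to 5425875) measured 4.89 RPKM in the epithelial control and 15.4 RPKM in its partner, a ratio of 3.16 (2.44 to 4.15). Atf4 measured 5.77 and 7.0 RPKM, a ratio of 1.21 whose limits of 0.923 and 1.62 reached 1. The control held less Xbp1 than Atf4 RNA per length, and the library labelled knockout more: Xbp1 over Atf4 was 0.847 in the control and 2.21 in its partner. The sensors were scarce. Ern1 was at 1.08 and 1.76 RPKM (ratio 1.63, 1.2 to 2.21), Atf6 at 1.29 and 1.95 RPKM (1.52, 1.15 to 2.0) and Eif2ak3 at 1.34 and 1.81 RPKM (1.35, 0.967 to 1.95). The 5 genes had a median log2 difference of 0.37.

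Of the Atf4 targets in epithelium, Asns was lower than in the control, while Ddit3, Trib3 and Chac1 were too scarce there for a difference to be detectable at this depth. Asns (chromosome 6, 7625171 to 7643182), which makes asparagine and is a standard readout of Atf4, measured 2.12 RPKM in the control and 1.29 RPKM in its partner, a ratio of 0.610 (0.397 to 0.969). Ddit3, the transcription factor of lasting stress also called Chop, was at 0.960 and 1.78 RPKM, resting on about 4 reads in the control, and its limits of 0.725 and 7.13 reached 1. Like Sdf2l1, Ddit3 passed the minimum only through the library labelled knockout. Trib3, which is induced by Atf4 and Ddit3, was listed at 0 in the control and at 0.0938 RPKM in its partner. Chac1, which breaks down glutathione, was listed at 0 and at 0.0338 RPKM. No RNA level of the 4 passed 2.12 RPKM in any library. The median log2 difference of the 4 was 0.09, and that of Asns and Ddit3, the 2 that were kept, was 0.03 as deposited and -0.12 to -0.05 under the 3 rescalings, so it has no set direction.

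The amino acid response element, at which Atf4 binds, was searched as TGATGNAAN on both strands in the same windows. It was found in Trib3, Chac1, Asns and Herpud1, and in 4.50% of all genes with a window. The Asns and Herpud1 matches are shown because these genes lay on opposite sides in epithelium.
Asns, chr6:7693219-7693237 (-): ccacaTGATGAAACttccc
Herpud1, chr8:94386311-94386329 (+): ggcggGTTGCATCAgcccg
Trib3, Chac1 and Asns were at low levels throughout. Herpud1 was at 1.32 RPKM in the epithelial control, below Asns at 2.12 RPKM, and at 4.57 RPKM in its partner. Herpud1 also holds the other form of the stress element printed above, and the part of either element was not tested.

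A wider list of 38 genes that Atf4 is known to raise was split in epithelium. Of its 24 kept genes 15 were above 0 and 9 below, with a median of 0.05, and the limits lay above 1 for 5 and below 1 for 6. The share above 0 was near that of all kept genes, 61.9%. Among those the limits lay above 1 for 25.1% and below 1 for 13.5%. Gars, the glycyl-tRNA synthetase, was at 22.9 and 13.1 RPKM, a ratio of 0.574 (0.510 to 0.648). Slc38a2, an amino acid transporter, was at 20.3 and 35.5 RPKM, a ratio of 1.75 (1.61 to 1.91). The low value of Asns was therefore shared by part of the list only. Sesn2, which restrains growth signalling under stress, was at 4.83 and 8.38 RPKM, a ratio of 1.74 (1.42 to 2.14). Of genes chosen after their values were seen, Wars, Psat1 and Gpt2 had ratios of 0.648, 0.640 and 0.612, and Ddit4, Aldh18a1 and Tars had 2.53, 1.57 and 1.48.

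Degradation genes were higher in epithelium by less than the chaperones, with a median log2 difference of 0.31 and all 7 above 0. Herpud1 (chromosome 8, 96910400 to 96919258), a membrane protein that gathers the degradation complex, stood out, with 1.32 RPKM in the control against 4.57 RPKM, a ratio of 3.45 (2.11 to 6.56). Sel1l and Syvn1 form the ubiquitin ligase at which misfolded proteins leave the endoplasmic reticulum. Sel1l was at 3.31 and 4.55 RPKM, a ratio of 1.38 (1.15 to 1.67), and Syvn1 at 4.56 and 5.89 RPKM, a ratio of 1.29 (1.04 to 1.61). Edem1, a lectin that hands over misfolded glycoproteins, was below the minimum, at 0.662 and 1.19 RPKM, with a ratio of 1.8 (1.2 to 2.88). Derl1, Derl2 and Derl3 belong to the channel through which proteins leave. Derl1 was at 4.64 and 5.76 RPKM with a lower limit at 1.0, Derl2 was at 2.48 and 2.82 RPKM with limits of 0.859 and 1.52, and Derl3 was at 0.149 and 0.258 RPKM, about 1 read in the control. Within the library, Herpud1 over Derl1 was 0.285 in the control and 0.793 in its partner.

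The translocation genes bring new proteins into the endoplasmic reticulum. Sec61a1, the channel itself, was at 13.0 and 20.2 RPKM in epithelium, a ratio of 1.56 (1.37 to 1.78). Its small subunit Sec61b was at 19.7 and 27.6 RPKM, a ratio of 1.40 (1.03 to 1.92). Ssr1, of the translocon-associated complex, was at 1.35 and 1.85 RPKM, a ratio of 1.37 (1.09 to 1.74). All 3 were higher with limits above 1.

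**Figure D3:**
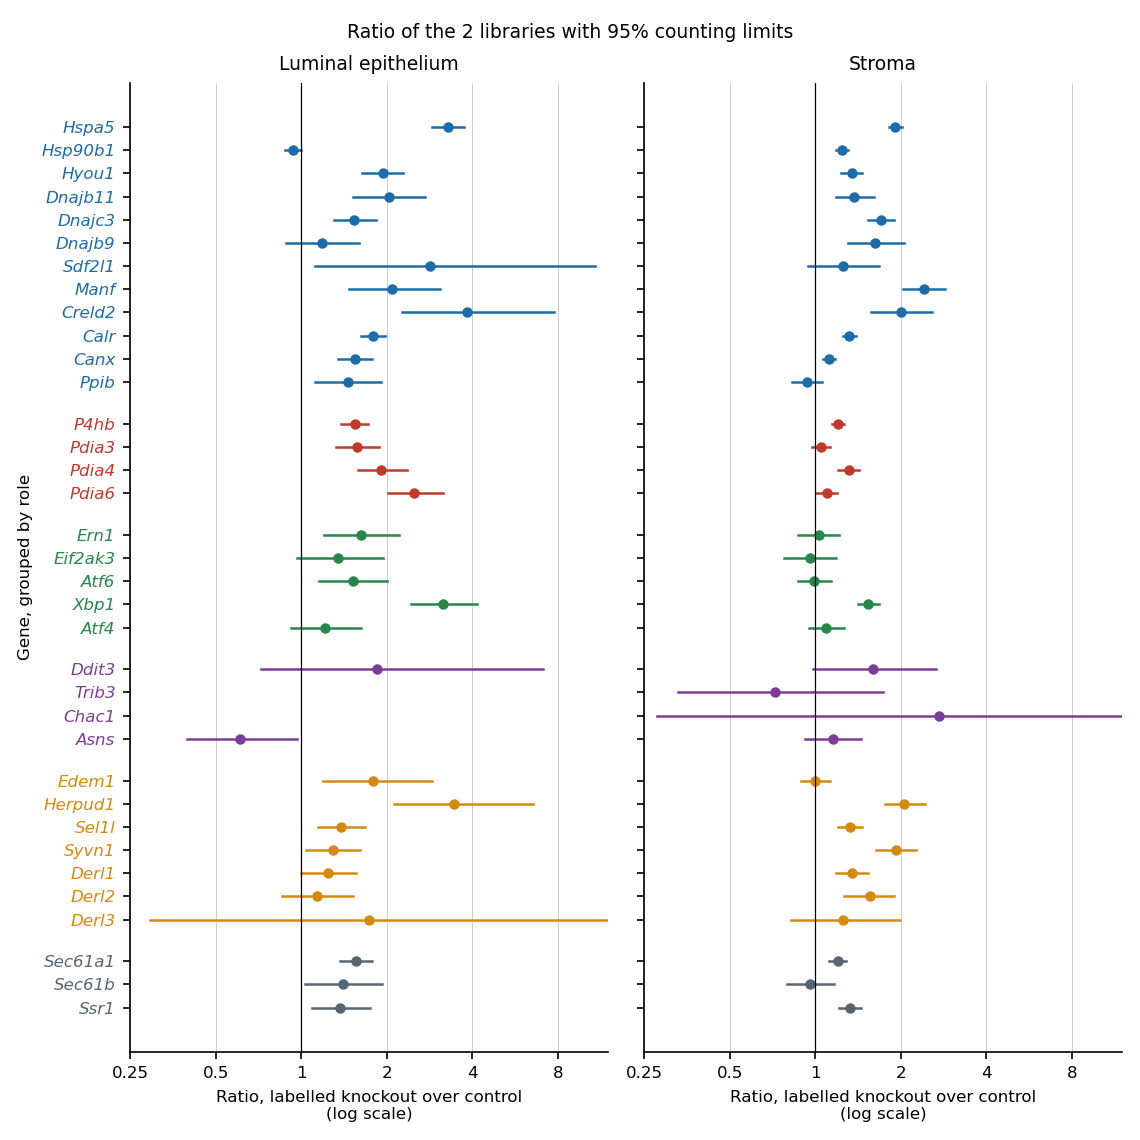
Ratio of RPKM, library labelled knockout over control (log axis), for the 35 genes in luminal epithelium (left) and stroma (right), with 95% counting limits as bars. Trib3 and Chac1 have no ratio in epithelium because the control lists them at 0, and limits past the axis are cut off. The limits lie above 1 for 25 genes in epithelium and 21 in stroma.

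In stroma most of the 35 genes were again higher in the library labelled knockout, with smaller medians. Of the 35 genes 29 were above 0, with a median of 0.28, none reached 2-fold in either direction, and the limits lay above 1 for 21, below 1 for none and reached 1 for 14. Among kept stromal genes 64.2% were above 0, 1.45% were 2-fold higher and 1.59% lower, 32.5% had limits above 1 and 12.7% below, and the median was 0.07. Over all 23235 genes 42% were above 0, 0.499% were 2-fold higher and 0.547% lower, and limits lay above 1 for 14.9% and below 1 for 9.24% of those of known length. The summed level of the 35 was 231 RPKM in the control and 299 RPKM in its partner, a ratio of 1.29. All genes of the stromal table summed lower in the partner, at 83833 RPKM in the control and 75875 RPKM. The summed ratios of the compartments are therefore not on a like footing. The genes Pdia3 and Ern1, at 0.06 and 0.02, changed sign under all 3 rescalings, and Chac1 under 1 of them.

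Hspa5, Manf, Creld2, Herpud1 and Syvn1 led in stroma. Manf was at 2.12 RPKM (control) and 5.10 RPKM, a ratio of 2.4 (2.04 to 2.85), beside 2.08 in epithelium. Herpud1 was at 2.73 and 5.61 RPKM, a ratio of 2.05 (1.76 to 2.43). Creld2 was at 1.82 and 3.65 RPKM, a ratio of 2.00 (1.57 to 2.57). With 1 RPKM added, as in the call, the log2 differences of Manf, Herpud1 and Creld2 were 0.97, 0.83 and 0.72. Hspa5 was at 19.9 and 38.2 RPKM, a ratio of 1.91 (1.82 to 2.01). Syvn1 was at 1.54 and 2.96 RPKM, a ratio of 1.92 (1.63 to 2.26). Syvn1 and Sel1l belong to a single ligase, and Sel1l had a ratio of 1.32 (1.2 to 1.46) from 2.51 and 3.32 RPKM.

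Over all 12 chaperones, Hspa5, Manf and Creld2 included, 10 had limits above 1 in stroma and the median was 0.37. The J-domain cofactors Dnajc3 and Dnajb9 had ratios of 1.70 (1.53 to 1.89) and 1.62 (1.31 to 2.04), and Dnajb11 had 1.37 (1.18 to 1.6). Hsp90b1 was higher here, at 23.2 and 28.6 RPKM, a ratio of 1.24 (1.18 to 1.30). Calr was at 27.0 and 35.6 RPKM and Canx at 14.2 and 15.8 RPKM, with ratios of 1.32 (1.25 to 1.39) and 1.12 (1.06 to 1.18). Hyou1 was at 4.76 and 6.39 RPKM, a ratio of 1.34. Ppib, at 15.8 and 14.8 RPKM, and Sdf2l1, at 2.03 and 2.54 RPKM, had limits that reached 1.

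Isomerases, sensors and translocation genes had lower medians in stroma than the chaperones, though some of them had limits above 1. The isomerases had a median of 0.19, with Pdia4 highest by ratio, at 8.75 and 11.5 RPKM (ratio 1.31, 1.2 to 1.43). P4hb (1.2, limits 1.15 to 1.26) and Pdia6 (1.09, 1.01 to 1.19) also had limits above 1, and Pdia3 (1.05, 0.974 to 1.12) did not. Xbp1 was the sole gene of its group with limits above 1, at 10.1 and 15.6 RPKM and a ratio of 1.54 (1.42 to 1.67). Atf6 was at 1.25 and 1.24 RPKM, Eif2ak3 at 0.851 and 0.815 RPKM and Ern1 at 0.860 and 0.883 RPKM, each within counting error. Of the translocation genes, Sec61a1 and Ssr1 had ratios of 1.2 and 1.33 with limits above 1, while Sec61b, at 12.6 and 11.99 RPKM, had limits that reached 1. The degradation group had a median of 0.32, with Derl1 at a ratio of 1.34 (1.18 to 1.53) and Derl2 at 1.55 (1.26 to 1.90), the latter from 0.962 and 1.49 RPKM. Edem1, at 2.05 RPKM in both libraries, had a ratio of 0.998 (0.889 to 1.12).

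None of the 4 Atf4 targets differed beyond counting error in stroma. Asns was at 1.64 and 1.88 RPKM, a ratio of 1.15 (0.918 to 1.45), and Ddit3 at 0.841 and 1.34 RPKM, a ratio of 1.59 (0.977 to 2.65). In stroma Ddit3 and Derl2 passed the minimum only through the library labelled knockout. Trib3 was at 0.168 and 0.121 RPKM and Chac1 at 0.0174 and 0.0472 RPKM. The wider Atf4 list lay higher in stroma, unlike in epithelium, with 22 of 25 kept genes above 0, a median of 0.23 and limits above 1 for 13 and below 1 for 1. Among all kept stromal genes 64.2% were above 0 and 32.5% had limits above 1. Gars, lower in epithelium, had a stromal ratio of 1.28 (1.11 to 1.47). Whether the compartments differ in this was not tested.

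Set side by side, 29 of the 35 genes were kept in both compartments. Of these, 24 were above 0 in both, where 44.3% of all 5873 genes kept in both were, and 18 had limits above 1 in both, where 10.5% did. The epithelial difference was the larger for 20 of the 29, against 3124 of the 5873 genes. Across the 29 genes the differences in the 2 compartments went together with Pearson's r of 0.51 and Spearman's rho of 0.40, against 0.19 and 0.13 across all 5873. Genes are not independent replicates, and these coefficients describe 4 libraries. Hsp90b1, Asns, Ppib, Atf6 and Sec61b had opposite signs in the compartments.

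**Figure D4:**
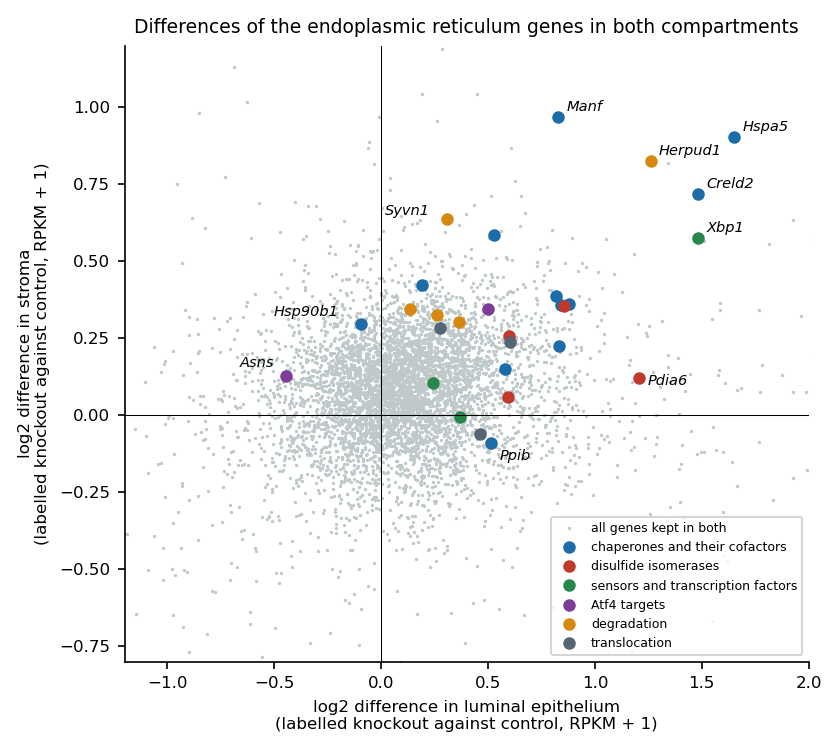
Log2 difference in luminal epithelium (x axis) and in stroma (y axis) for the 29 endoplasmic reticulum genes kept in both compartments (coloured by role) and all 5873 genes kept in both (grey, of which 180 lie beyond the axes). Hspa5, Creld2, Herpud1 and Xbp1 lie to the upper right, Asns and Hsp90b1 to the left of 0.

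Levels in epithelium and stroma can be set beside each other only as a description, since the tables were normalized separately. The median log2 difference of epithelium against stroma over the 29 genes was 0.17 between the controls, where that of all 5873 genes was 0.28, and 0.40 between the libraries labelled knockout, where it was 0.31. By that measure 3 of the 29 were 2-fold higher in epithelium and none lower between the controls, and 1 and none between the others. The shares of all 5873 genes were 14.8% higher and 4.73% lower between the controls and 15.6% and 3.2% between the others. The sign of this median for the 29 genes turned under rescaling, to -0.23 between the controls and -0.03 between the others by the upper quartile, so it has no set direction. As plain RPKM ratios, Hsp90b1, Derl2, Dnajb9 and Syvn1 were 2.51, 2.58, 2.92 and 2.96 times as high in the epithelial as in the stromal control. In the other direction Xbp1, Herpud1, Sdf2l1, Edem1 and Derl3 were 2.07, 2.06, 2.81, 3.10 and 4.80 times as high in the stromal control. The values of Sdf2l1 and Derl3 rest on about 4 and 1 estimated reads in the epithelial control. Xbp1 was level between the compartments in the labelled knockouts, at 15.4 and 15.6 RPKM.

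In epithelium, the lists of genes in the same pathways had medians below the 0.53 of the 31 kept genes of the 35. Not every group of the 35 lay above these lists. The sensors and transcription factors had a median of 0.37, degradation 0.31 and the kept Atf4 targets 0.03. Among all kept genes the median was 0.10, and the limits lay above 1 for 25.1% and below 1 for 13.5%. The 22 genes of N-glycosylation and the calnexin cycle came closest, with 18 of 19 kept genes above 0, a median of 0.42 and limits above 1 for 13 and below 1 for none. Dad1, a subunit of the enzyme that attaches sugar chains, was at 7.29 and 14.7 RPKM, a ratio of 2.02 (1.64 to 2.52). Transport vesicles from the endoplasmic reticulum to the Golgi had a median of 0.36 with limits above 1 for 16 and below 1 for 1 of 25 kept genes. The translocon and signal peptidase list had 0.24 (7 above and 1 below of 21), other degradation genes 0.21 (5 and 1 of 18), other regulators of the stress response 0.24 (8 and 2 of 19) and other oxidoreductases and chaperones of the endoplasmic reticulum 0.16 (9 and 0 of 19). In the last list Erp29, a chaperone related to the isomerases, was at 4.97 and 16.8 RPKM, a ratio of 3.39 (2.89 to 4.00). Qsox1, a sulfhydryl oxidase chosen after its values were seen, was at 0.839 and 7.46 RPKM, a ratio of 8.89 (5.32 to 16.4).

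Chaperones outside the endoplasmic reticulum were examined beside the 35 genes. The list of 24 cytosolic heat shock chaperones had a median of 0.14 in epithelium, with limits above 1 for 9 and below 1 for 3 of 23 kept genes, where the 31 kept genes of the 35 had 0.53. Among all kept genes the limits lay above 1 for 25.1% in epithelium and 32.5% in stroma. In stroma the list had a median of 0.28, with limits above 1 for 14 and below 1 for 1 of 20, beside 0.31 for the 30 kept genes of the 35. Whether the compartments differ in this was not tested. Hspa8, the constitutive cytosolic Hsp70, was at 89.0 and 134.9 RPKM in stroma, a ratio of 1.52 (1.48 to 1.56). Hsph1, its cofactor, chosen after its values were seen, was at 2.21 and 6.30 RPKM, a ratio of 2.86 (2.53 to 3.22). The remaining stromal medians were 0.27 for transport to the Golgi, 0.17 for N-glycosylation, 0.16 for other oxidoreductases, 0.10 for the translocon, 0.08 for other degradation genes and 0.06 for other regulators.

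**Figure D5:**
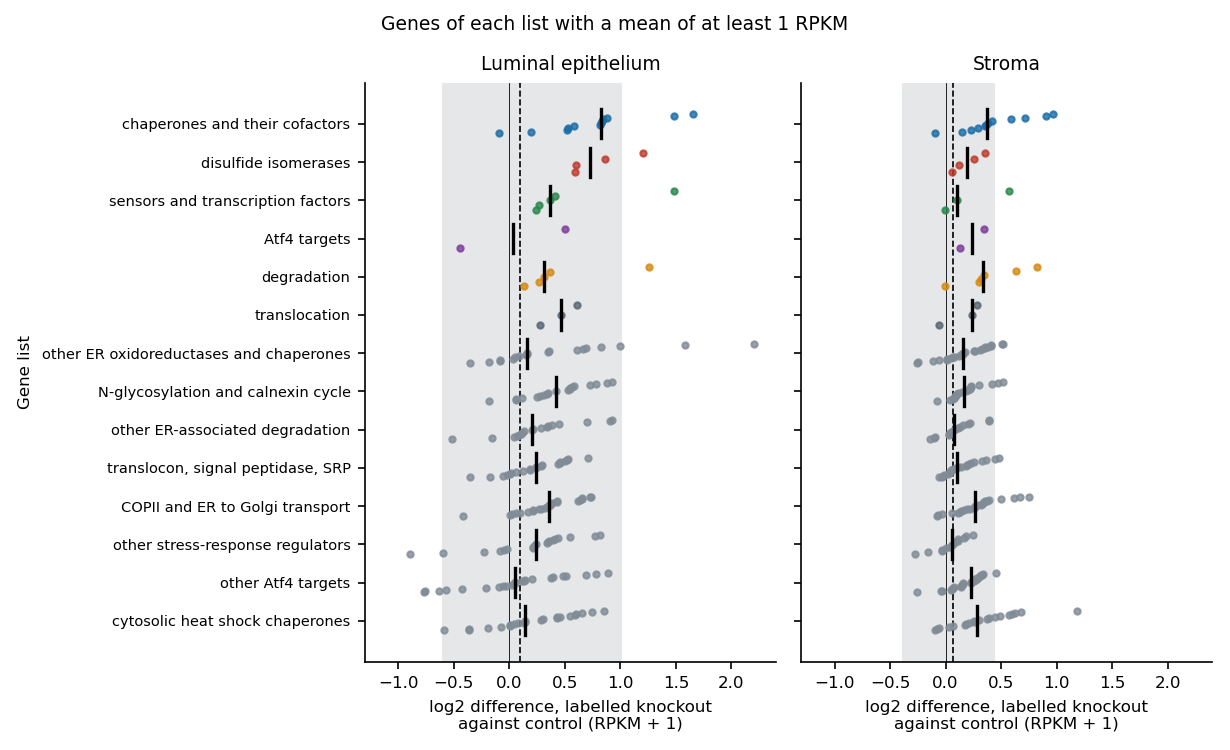
Log2 difference of the kept genes in the 6 groups of the 35 genes (coloured) and in 8 lists of related genes (grey), with the median of each as a bar, in luminal epithelium and stroma. The shaded band runs from the 5th to the 95th percentile of all kept genes and the dashed line is their median (0.10 and 0.07). Chaperones and isomerases lie furthest right in epithelium, at 0.82 and 0.73, and cytosolic heat shock chaperones reach 0.28 in stroma.

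Markers of the captured tissues and of other cell types differed too. In the epithelial captures all 11 leukocyte markers in the table summed to 18.3 RPKM in the control and 3.49 RPKM in its partner, with Cd3e at 0 in the control, and the 11 stromal markers summed to 13.4 and 5.58 RPKM, with Tcf21 at 0 in both. The 7 smooth muscle markers summed to 5.04 and 0.705 RPKM there, with Acta2 at 1.91 and 0.0261 RPKM. The 7 luminal epithelial markers summed to 146 and 226 RPKM, of which Irg1 made up 36.9 and 98.6 RPKM, while Lpar3 was at 25.1 and 23.6 RPKM. Il13ra2 of that list was at 0 and 1.06 RPKM, below its stromal levels of 2.75 and 3.68 RPKM. General epithelial markers went both ways in the epithelial captures. Krt8, Krt19, Cldn3 and Cldn7 had limits above 1, Krt18 and Cldn4 below 1, and Epcam and Cdh1 reaching 1. Plasma and B cell markers, from cells rich in endoplasmic reticulum, summed to 1.30 and 1.49 RPKM over 9 genes there, with 6 listed at 0 in the control and 3 in its partner. The 8 glandular markers summed to 1.19 and 5.92 RPKM, mostly Aldh1a1 at 0.789 and 4.86 RPKM, with Spink3, Prss28, Prss29 and Ttr at 0 in both and Foxa2 at 0.0881 and 0.0312 RPKM. In the stromal captures the plasma and B cell markers summed to 41.3 and 63.9 RPKM, of which Igj, the joining chain of secreted antibodies, made up 34.4 and 54.2 RPKM, and none of the 9 was listed at 0. Leukocyte markers summed to 123.5 and 55.4 RPKM there, and stromal markers to 391 and 563 RPKM, with limits above 1 for 7 of the 11 and below 1 for 2. The collagen genes Col1a1, at 32.9 and 83.7 RPKM, Col1a2, at 45.9 and 101.7 RPKM, and Col3a1, at 132.1 and 201.5 RPKM, were higher, while Vim, at 77.0 and 62.4 RPKM, and Pdgfra, at 18.0 and 13.3 RPKM, were lower. The part of these markers in the higher levels of the endoplasmic reticulum genes was not tested.

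In the authors' deposited table, 94 genes in epithelium and 5 in stroma were marked significant, and none of the 35 was among them. The lowest q-value of the 35 in the authors' deposited table was 0.4405 in epithelium, for Creld2, over 32 tested, and 0.861 in stroma, for Manf, over 33 tested. That comparison also sets 1 library against 1.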

How the data were processed

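Libraries were made from captured RNA (PicoPure kit) as stranded total RNA after ribosomal RNA depletion, per the labels' protocols. The submitters' processing notes name Cufflinks 2.0.2, TopHat and TopHat2 2.0.5, CASAVA 1.8.2 and build mm9, without settings, filters or the use of strand. The 2 deposited tables, 1 per compartment, hold RPKM for each library, computed by the authors, per the file headers. The authors' fold change and test statistic are deposited as scores of their own comparison, with its p-value and q-value, and only the q-value and significance mark were used, for Creld2, Manf and counts.

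The 35 genes, their groups, 8 related lists and 9 marker lists were chosen with earlier results of these data known. Outside the 35, a related list's genes were named by the size of their difference, up to 3 per list, where the mean over the pair reached 5 RPKM. Estimated reads came from the spacing of low RPKM values times the transcript length (GENCODE vM21, by RefSeq identifier) less 200 bases. Between 58.4% and 60.8% of low values lay within 0.2 of a whole read, and the spacing was fitted to the same values. Lengths were known for 98.9% and 98.8% of kept genes. Deposited starts were raised by 1, since 7152 of 20601 loci then matched the annotation's length, against 452 otherwise. The scripts ran under Python 3.11.15 with scipy 1.17.1, pandas 2.3.3, numpy 2.4.6 and, for plots, matplotlib 3.10.9, and were tested on simulated data. Alternatives changed the pseudocount, the minimum, the scaling and the set of gene models. Some marker genes were left out of the lists and are not reported here.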

Additional observations from a re-analysis of the deposited data

Results flagged for a closer look

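The difference between the library labelled knockout and the control had opposite signs in the compartments for 5 of the 29 genes kept in both, and the difference between compartments was not tested. Hsp90b1 had a log2 difference of -0.09 in luminal epithelium and 0.29 in stroma, with counting limits above 1 in stroma alone. Asns had -0.44 in epithelium, with limits below 1, and 0.13 in stroma, with limits that reached 1. Ppib had 0.51 and -0.091, Sec61b had 0.46 and -0.061, and Atf6 had 0.37 and -0.0070, each with limits above 1 in epithelium and reaching 1 in stroma. No gene had limits on opposite sides of 1 in the compartments.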

How the results depend on the processing

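With a pseudocount of 0.1 RPKM in place of 1, the genes at least 2-fold higher numbered 8 in luminal epithelium and 2 in stroma. With 5 RPKM there were 2 in epithelium, and the median of the chaperones there was 0.44. With a minimum mean of 5 RPKM, 3 of 18 kept genes were 2-fold higher in epithelium and 17 were above 0, 12 of 14 were above 0 in stroma, and the medians of the sensors and transcription factors (2 genes left) were 0.86 and 0.34 and that of translocation in stroma 0.088 (2 genes left). The Atf4 targets in epithelium turned to -0.12 without the 50 most abundant genes in the sums, -0.047 by the upper quartile and -0.070 when centred, and the median of all kept genes there turned to -0.083 under the first of these. The median of epithelium against stroma was -0.021 and 0.050 (control and labelled knockout) without the 50 most abundant genes and -0.23 and -0.030 by the upper quartile. The cause of these changes was not tested, except that a higher minimum leaves fewer genes. Of the values of single genes under the alternatives, 526 moved by less than their counting limits and 34 by more, none with a change of a called sign. The median of the kept genes of the 35 ran from 0.35 to 0.63 in epithelium and from 0.17 to 0.39 in stroma over the 8 alternatives. No paired analysis was possible because each group has 1 library. Ddit3, Derl3, Trib3 and Chac1 rest on about 4 reads or fewer in the shallow epithelial control, and no difference was detectable for them there at this depth.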
